A study of Mus musculus with 48 samples.

Results

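The nuclear genes for subunits of the mitochondrial oxidative phosphorylation complexes were described in 2 mouse tissues, the arcuate nucleus of the hypothalamus and the left nodose ganglion. Members were chosen by name, as symbols that begin with Nduf followed by a, b, c, s or v and a number, with Uqcr, with Cox4 to Cox8, or with Atp5. They also had to reach a mean of at least 1 CPM (counts scaled to a fixed library total) over the 24 libraries of either tissue. Of 25229 genes in the table, 84 had such a name and 78 were members, with 76 reaching the level in the arcuate nucleus and all 78 in the nodose ganglion. They comprised 35 genes of complex I, 8 of complex III, 18 of complex IV and 17 of complex V, the ATP synthase. Ndufa4 and Ndufa4l2 were counted with complex IV, the complex in which Ndufa4 is now placed.

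All animals were male C57Bl/6J mice with both Rev-erba and Rev-erbb floxed, the genes for 2 nuclear receptors that repress transcription in the circadian clock. Control mice received AAV8-TBG-EGFP and HepDKO mice AAV8-TBG-Cre into the tail vein at 6 to 10 weeks of age, and the hepatocyte promoter TBG drives either transgene in the liver. The floxed alleles were therefore shared by both groups, the deletion was directed at hepatocytes, and the liver itself was not analysed here, so no library of these tissues checks the deletion. Tissue was taken at 10 to 12 weeks of age, 2 to 4 weeks after injection, from mice on chow in 12 h of light and 12 h of dark at 27 °C, at zeitgeber times (ZT, hours after lights on) 4, 10, 16 and 22. Each of the 16 groups of tissue, genotype and time held 3 libraries, which the labels describe as separate biological replicates, each a pool of 3 to 4 arcuate micropunches or 4 left nodose ganglia. The question was whether loss of the liver clock repressors reaches gene expression in the vagal sensory ganglion and in the feeding centre of the brain.

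Oxidative phosphorylation turns the oxidation of nutrients into ATP on the inner mitochondrial membrane. Complex I takes electrons from NADH and complex II from succinate, complex III passes them to cytochrome c, complex IV reduces oxygen, and the ATP synthase uses the resulting proton gradient. Each complex except complex II joins a few proteins encoded in mitochondrial DNA with many encoded in the nucleus. Several nuclear subunits of complex IV exist as a form found in most tissues and a form typical of heart and skeletal muscle, among them Cox6a, Cox7a and Cox8. Neurons depend strongly on this pathway, and oxidative muscle fibres express it at high levels.

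The libraries differed in ways that touch the values below. Arcuate libraries held 15483922 to 20399718 counts (median 17324244) and nodose libraries 1813994 to 10422914 (median 6641665), and the 2 tissues were also prepared with different library protocols. Arcuate libraries carried the markers of their label, with Pomc at 45.8 to 110 CPM and Agrp at 12.4 to 22.4 CPM. Nodose libraries nearly lacked those of theirs. Scn10a, a sodium channel of sensory neurons, had a median of 0 CPM, the sensory neuron receptor P2rx3 had a median of 0.598 CPM, and 6 general neuronal markers summed to 25.7 to 88.8 CPM against 2797 to 3256 CPM in the arcuate nucleus. High in these libraries were 6 Schwann cell markers, at 15694 to 41504 CPM, and 10 of 10 skeletal muscle markers, at 11634 to 137350 CPM in Control and 52992 to 113134 CPM in HepDKO libraries. The same muscle genes summed to 11.0 to 41.6 CPM in the arcuate libraries. Markers of slow skeletal or cardiac fibres were low in nodose libraries, with 2 of 5 above 1 CPM. They summed to 0.982 to 21.2 CPM in Control and 1.05 to 10.2 CPM in HepDKO nodose libraries. Adipocyte markers, 6 of 6 detected, summed to 184 to 1764 CPM in Control and 242 to 1401 CPM in HepDKO nodose libraries, and 4 brown adipocyte markers to 1.47 to 187 and 0.345 to 127 CPM, with Ucp1 at 0 to 139 CPM. In such bulk tissue, fewer cells of a type and less RNA per cell cannot be told apart.

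Within each tissue the most abundant member per length was Atp5b, the catalytic beta subunit of the ATP synthase, at 461 ± 15.9 CPM per kilobase of transcript in the arcuate nucleus and 611 ± 192 in the nodose ganglion (SD, n = 24 libraries each). In the arcuate nucleus Cox4i1, the largest nuclear subunit of complex IV, followed at 386 ± 31.0 CPM per kilobase. Atp5h of the ATP synthase stalk was at 314 ± 27.1 and Cox8a at 307 ± 29.8. The ranges of neighbours in this order overlapped over the 24 libraries. In the nodose ganglion the order was Atp5b, Cox6c (417 ± 120), Cox4i1 (387 ± 108) and Atp5a1 (368 ± 135). The SDs exceeded the gaps between the last 3 of these, and the gap from Atp5b to Cox6c was about as large as the SD of Atp5b. The lowest of the 75 members that could be ranked by length were Cox8b (0.236 CPM per kilobase), Cox4i2 (1.57) and Ndufa4l2 (1.88) in the arcuate nucleus, and Cox4i2 (1.76), Ndufa4l2 (2.73) and Cox6b2 (4.34) in the nodose ganglion.

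Just inside the threshold of 1 CPM, before scaling, were Cox4i2 (1.14 CPM), Cox7a1 (1.41) and Ndufa4l2 (1.76) in the arcuate nucleus and Cox4i2 (1.26), Cox6b2 (2.05) and Ndufs5-ps (2.51) in the nodose ganglion. Just outside it were Ndufs5-ps (0.218 CPM), Cox7c-ps1 (0.151) and Cox7b2 (0.138) in the arcuate nucleus and Cox7c-ps1 (0.598) and Ndufa11b (0.218) in the nodose ganglion, where Cox7b2 and Cox8c were at 0. Ndufs5, an accessory subunit of complex I, was listed at 0 in all 48 libraries while its copy Ndufs5-ps was counted in the nodose ganglion. Reads of genes with such near-identical copies could have been assigned to either, so the values of Ndufs5-ps, Ndufb4 and Cox7c are uncertain.

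The members varied little between arcuate libraries and much between nodose libraries. Their coefficient of variation over 24 libraries had a median of 8.82% in the arcuate nucleus, from 2.8% for Atp5a1 to 35.2% for Cox4i2. In the nodose ganglion the median was 32.6%, from 10.4% for Cox7a2l, which takes part in respiratory supercomplexes, to 59.6% for Ndufa2. Summed over the members, arcuate libraries held 7488 to 9654 CPM and nodose libraries 4511 to 16708 CPM. In the nodose library with the highest sum, Control ZT10 replicate 1, the 4 complexes were raised alike. The median member of complex I lay 0.81, of complex III 0.89, of complex IV 0.83 and of the ATP synthase 0.84 above its nodose mean on the log2 scale.

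**Figure D1:**
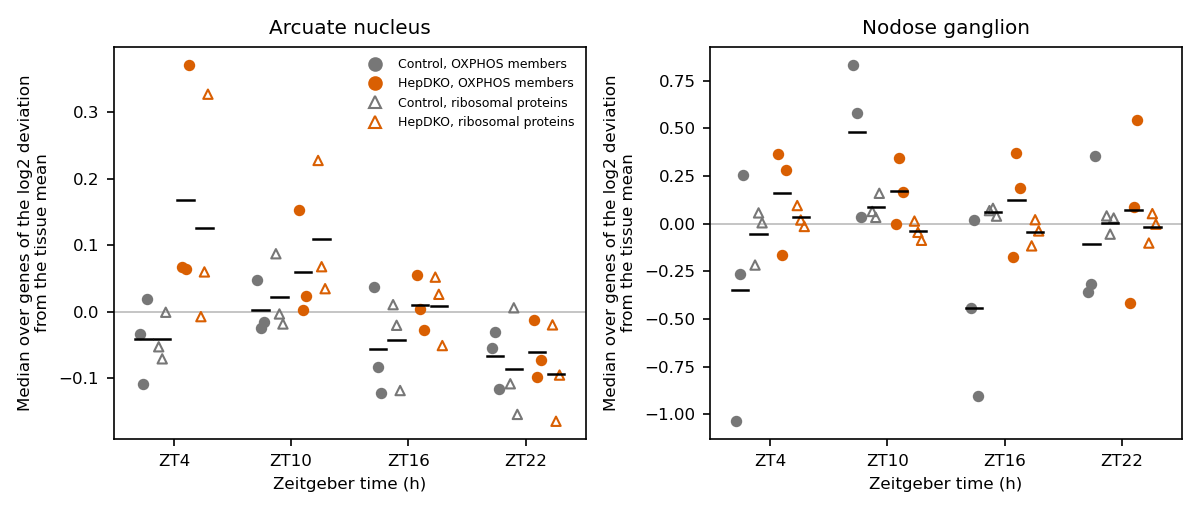
Median over the members of the log2 deviation from the tissue mean, by library (filled circles), beside the same for cytosolic ribosomal protein genes (open triangles), with zeitgeber time in hours on the horizontal axis and short bars at the mean of 3 libraries. In the arcuate nucleus HepDKO ZT4 replicate 3 stands alone at 0.37, with its ribosomal protein genes at 0.33, and in the nodose ganglion Control ZT4 replicate 1 (-1.04) and Control ZT16 replicate 3 (-0.90) lie lowest.

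Among the 76 members that reached 1 CPM in both tissues, the muscle-type forms Cox7a1 and Cox6a2 of complex IV differed most between the tissues. Nodose levels were compared with arcuate levels in a fit of all 48 libraries, by the quasi-likelihood test of edgeR, Benjamini-Hochberg adjusted over 17478 genes. In it 50 of these 76 members were higher and 9 lower in the nodose ganglion, where 92.1% of all genes differed (45.6% higher and 46.6% lower). Their median difference was 0.41 (log2), against -0.01 for all genes. Cox8b and Ndufs5-ps are set aside here, since they became members through their nodose level alone and had to differ. Because preparation and depth differ along with tissue, tissue and preparation cannot be told apart.

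Cox8b, the muscle form of a small complex IV subunit, had 36 reads over all 24 arcuate libraries, 10 of them at 0, and 13649 reads over the nodose libraries. Its level chose it as a member in the nodose ganglion only, so this contrast is a description. Cox7a1 was 5.61 ± 0.19 (log2, SE) higher and Cox6a2 4.78 ± 0.22 higher (adjusted p 3.14e-25 and 1.10e-20 by the edgeR test). Their widely expressed counterparts did not all go the same way. Cox8a was 1.77 ± 0.042 lower in the nodose ganglion and Cox6a1 0.94 ± 0.044 lower, which gives Nodose minus Arcuate values of -1.77 and -0.94. Cox7a2 was 0.17 ± 0.059 higher (adjusted p = 0.00671 by the same test).

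As a share of each pair's summed level per length, Cox8b made up 0% to 0.289% of Cox8a plus Cox8b in arcuate libraries (median 0.0495%) and 35.7% to 86.4% in nodose libraries (median 75.0%). Cox6a2 made up 0.873% to 3.07% of its pair with Cox6a1 in the arcuate nucleus and 6.93% to 70.4% in the nodose ganglion (median 50.9%). Cox7a1 made up 1.82% to 3.55% of its pair with Cox7a2 in the arcuate nucleus and 19.99% to 63.6% in the nodose ganglion (median 54.2%). Ranges of the 2 tissues did not overlap for Cox6a2 or Cox7a1. Those of Cox8b did not either, but its nodose level alone made it a member, so its separation is no result. The lowest nodose share of all 3 pairs was in Control ZT16 replicate 3, the library with the lowest muscle marker score.

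The other alternative forms stayed rare in both tissues. Cox4i2, a form of Cox4i1 known from lung and oxygen sensing cells, made up at most 0.604% of its pair in the arcuate nucleus and 0.990% in the nodose ganglion. Cox6b2, known from testis, reached 3.39% and 5.15% of its pair with Cox6b1. Ndufa4l2, a hypoxia-responsive paralog of Ndufa4, reached 1.04% and 5.68%, the latter in HepDKO ZT22 replicate 3 alone, with 1.39% the highest share in the other nodose libraries.

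**Figure D2:**
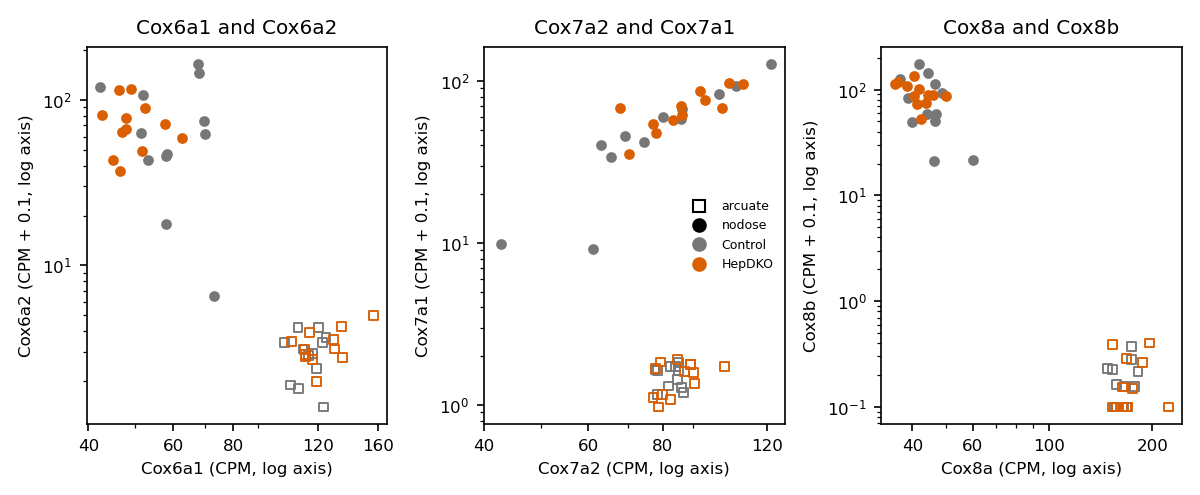
Level of the muscle form (vertical, CPM plus 0.1, log axis) against the widely expressed form (horizontal, CPM, log axis) of Cox6a, Cox7a and Cox8 in each library, squares for the arcuate nucleus and circles for the nodose ganglion. Cox6a2 and Cox7a1 are higher in every nodose than in every arcuate library, as is Cox8b, which became a member through its nodose level alone. Cox8a lies at 35.6 to 59.9 CPM in the nodose ganglion and at 148 to 222 CPM in the arcuate nucleus.

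Beyond the muscle forms, higher members in the nodose ganglion included Uqcrb of complex III (1.04 ± 0.11), Atp5e, the epsilon subunit of the ATP synthase (1.08 ± 0.13) and Cox6c (0.90 ± 0.079). All 8 members of complex III were higher, as were 19 of 34 of complex I, 10 of 17 of complex IV and 13 of 17 of the ATP synthase, beside 45.6% of all genes. The 9 lower members were Cox8a, Cox6a1, Cox7a2l, Atp5g2, Atp5g3, Ndufa11, Ndufa7, Ndufb6 and Ndufc2. Atp5g1, Atp5g2 and Atp5g3 encode the same mature c subunit of the ATP synthase ring, yet Atp5g1 was 0.30 ± 0.11 higher, and Atp5g2 and Atp5g3 were lower by differences of -0.39 ± 0.062 and -0.27 ± 0.10. Cox4i1 differed by 0.18 ± 0.074 (adjusted p = 0.0238 by the edgeR test), a call lost when no gene was filtered for low counts (adjusted p = 0.0562) and in 8 of 48 fits that left out 1 library. Those libraries were nodose Control ZT4 replicate 3, ZT10 replicate 1, ZT16 replicate 2 and ZT22 replicate 3, and HepDKO ZT4 replicate 1, ZT10 replicate 2, ZT16 replicate 2 and ZT22 replicate 3. The lowest estimate was 0.11 (adjusted p = 0.088), without the last of them. Among other genes of the pathway, Cycs, which encodes cytochrome c, was 1.06 ± 0.13 higher and Atpif1, the inhibitor of the ATP synthase, was lower, with a difference of -1.28 ± 0.040. Complex II had 3 of 4 subunits higher, and 22 of 37 assembly factors were lower with 10 higher.

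To show the promoters of the forms that separated the tissues, sequence just upstream of the start site was taken from RefSeq (GRCm38.p6), where 63 of the 78 members had a promoter entry. Windows end before any annotated transcript, are written 5′ to 3′ on the gene's own strand and carry capitals where a searched motif matched on either strand. The motifs were the NRF1 core, the ETS core CCGGAAG, the GC box GGGCGG, the YY1 core ATGGCG, the TATA box TATAAA, the E-box CAGCTG, and the MEF2 and RORE consensus sites. Cox8a lies at chr19:7217617-7217766 (minus strand), Cox8b at chr7:140900447-140900596 (minus), Cox7a1 at chr7:30184021-30184143 (plus), Cox7a2 at chr9:79759879-79760003 (minus) and Cox6a1 at chr5:115348982-115349108 (minus).
Cox8a: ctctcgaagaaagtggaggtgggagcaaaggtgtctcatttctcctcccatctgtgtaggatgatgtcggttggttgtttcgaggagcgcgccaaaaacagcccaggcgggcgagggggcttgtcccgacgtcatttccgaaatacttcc
Cox8b: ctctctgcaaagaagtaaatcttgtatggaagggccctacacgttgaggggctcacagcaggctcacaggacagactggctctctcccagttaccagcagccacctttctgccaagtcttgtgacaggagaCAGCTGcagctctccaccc
Cox7a1: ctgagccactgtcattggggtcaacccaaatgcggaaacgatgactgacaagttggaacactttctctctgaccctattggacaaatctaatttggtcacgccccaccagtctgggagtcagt
Cox7a2: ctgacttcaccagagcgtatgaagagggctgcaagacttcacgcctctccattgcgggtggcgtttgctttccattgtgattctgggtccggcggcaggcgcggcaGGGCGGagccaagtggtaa
Cox6a1: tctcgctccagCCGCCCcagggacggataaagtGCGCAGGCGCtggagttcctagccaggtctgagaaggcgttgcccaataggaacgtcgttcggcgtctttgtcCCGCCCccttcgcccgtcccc
The capitals mark an E-box in Cox8b, a GC box in Cox7a2, and an NRF1 core between 2 GC boxes in Cox6a1. The windows of Cox8a and Cox7a1 held none of these letters. No window of Cox6a2, the muscle form paired with Cox6a1, is shown, so that pair is incomplete here.

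Over the 150 bases upstream of 68 start sites of 63 members, the NRF1 core matched in 14.7% of windows, against 3.09% of all 32851 RefSeq promoters. NRF1 is a factor known for activating nuclear genes of the respiratory chain. The ETS core, the kind of site that the activator GABP binds, matched in 13.2% against 5.52%, and the YY1 core in 10.3% against 3.66%. Shares were nearer to each other for the GC box (29.4% against 28.6%), the TATA box (7.35% against 7.57%) and the E-box (5.88% against 8.39%). The RORE, the kind of site that REV-ERB receptors bind, and the MEF2 consensus matched in no member window, and in 0.216% and 0.332% of all promoters. By complex, the NRF1 core was in 15.6% of complex I, 7.69% of complex IV and 22.2% of ATP synthase windows, and in none of the 5 of complex III. A match of letters is a description and not evidence of binding.

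In the nodose ganglion nearly every member followed the muscle content of the library. Muscle content was scored as the mean log2 CPM of 10 skeletal muscle genes, none of them a member, and each gene's slope on that score was tested within the 8 groups by the quasi-likelihood test of edgeR, Benjamini-Hochberg adjusted over 14867 genes. Of 78 members, 69 rose with the score and 1 fell. Of all genes, 19.5% passed (12.2% rising and 7.26% falling). The median slope was 0.44 log2 units per unit of score for the members and -0.01 for all genes. By complex, the score's slope passed upward in 33 of 35 members of complex I, 8 of 8 of complex III, 11 of 18 of complex IV and 17 of 17 of the ATP synthase.

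The steepest slope was that of Cox6a2, at 1.12 ± 0.068 (SE, adjusted p = 5.42e-12 by the edgeR test), the single member with a slope above 1. At ZT4, ZT10, ZT16 and ZT22 its Control libraries read 17.7, 62.3 and 144, then 164, 107 and 74.2, then 45.9, 63.0 and 6.45, then 43.2, 46.6 and 120 CPM. Its HepDKO libraries in the same order read 88.7, 43.0 and 116, then 71.4, 78.0 and 66.4, then 48.7, 81.3 and 58.3, then 36.8, 63.7 and 114 CPM. Control and HepDKO libraries overlapped at each of the 4 times. Its extremes were the Control libraries with the lowest and the highest muscle score, ZT16 replicate 3 and ZT10 replicate 1.

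Cox7a1 had a slope of 0.88 ± 0.076, Cox8b of 0.79 ± 0.066 and Cox5a, a nuclear subunit without a muscle form, of 0.74 ± 0.064. Members outside complex IV followed at similar slopes, with Ndufa8 of complex I at 0.66 ± 0.091, Uqcrfs1, the Rieske iron-sulfur protein of complex III, at 0.65 ± 0.061, and Atp5g1 at 0.65 ± 0.060. The 3 genes of the c subunit differed in their slopes, which were not tested against each other: Atp5g1 lay above Atp5g3 (0.54 ± 0.060) and Atp5g2 (0.29 ± 0.064), and Cox4i1 rose by 0.33 ± 0.061. Leaving out 1 library at a time, the slope of Atp5g2 ran from 0.23 to 0.44 and that of Cox4i1 from 0.27 to 0.42. Under the other settings the slope of Cox4i1 reached 0.56.

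The member that fell was Cox8a, with a slope of -0.14 ± 0.045 (adjusted p = 0.0235 by the edgeR test). That call was lost without the 2 libraries of lowest muscle score, Control ZT4 replicate 1 and Control ZT16 replicate 3 (slope -0.17, adjusted p = 0.101). It was also lost without Control ZT16 replicate 3 alone (slope -0.11, adjusted p = 0.23) and without Control ZT16 replicate 2 alone (slope -0.13, adjusted p = 0.0827). Its nodose level lay between 35.6 and 59.9 CPM while that of Cox8b ran from 21.1 to 174 CPM. Those that did not pass were Cox6a1 (-0.09 ± 0.053), Cox7a2l (0.05 ± 0.044), Cox6b2 (0.01 ± 0.17), Cox4i2 (0.38 ± 0.25), Ndufa4l2 (0.42 ± 0.18), Cox7c (0.31), Ndufb4 (0.31) and Ndufs5-ps (-0.16 ± 0.20). Leaving out 1 library at a time, the slope of Cox6a1 ran from -0.15 without Control ZT4 replicate 1 to -0.05 without Control ZT16 replicate 3. That of Cox4i2 ran from 0.21 without HepDKO ZT22 replicate 3 to 0.57 without Control ZT16 replicate 3. The slope of Cox7a2l ran from 0.03 without HepDKO ZT22 replicate 3 to 0.11 without Control ZT4 replicate 1, and was 0.17 without the 2 libraries of lowest muscle score. Of the 9 members lower in the nodose ganglion than in the arcuate nucleus, 6 rose with the score, and those that did not were Cox8a, Cox6a1 and Cox7a2l.

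Counts for other genes of the pathway are read against the 12.2% of all genes that rose with the score. All 4 subunits of complex II rose, with slopes from 0.38 for Sdha to 0.54 for Sdhb, and so did Cycs (0.68 ± 0.078), Cyc1 of complex III (0.57 ± 0.079) and Ndufab1 (0.35 ± 0.089). Of 11 regulators of mitochondrial biogenesis 6 rose, among them the coactivators Ppargc1a (0.35) and Ppargc1b (0.49) and the nuclear receptor Esrrg (0.61). Assembly factors rose in 16 of 35 cases and proteasome subunits in 16 of 37. Cytosolic ribosomal protein genes, which are also short and abundant, had a median slope of 0.04, with 4 of 69 rising and 1 falling.

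**Figure D3:**
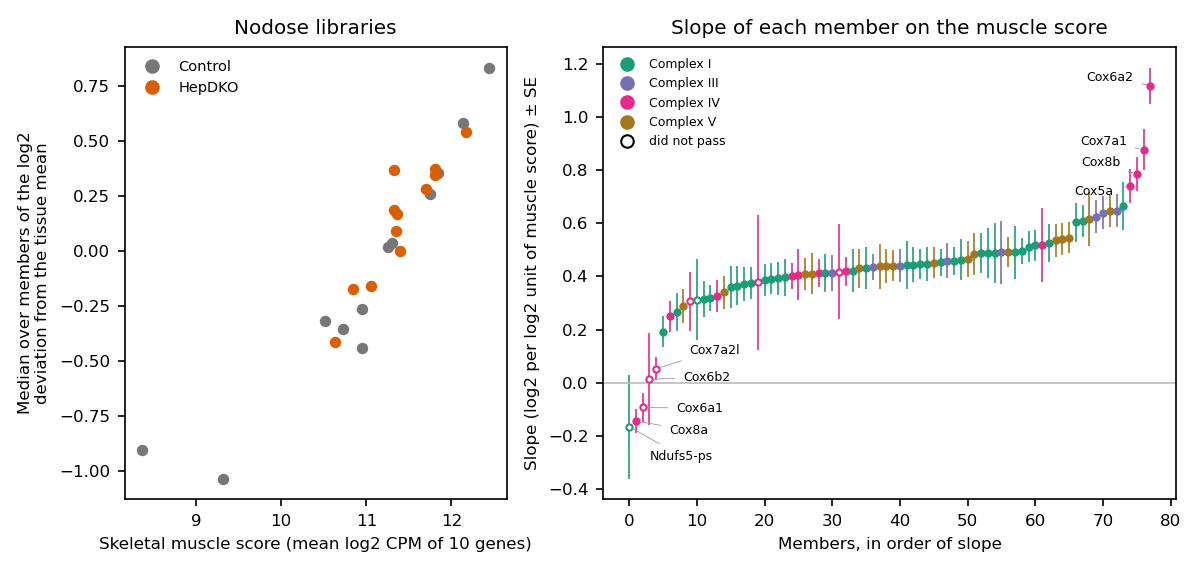
Left, median over the members of the log2 deviation from the nodose mean against the skeletal muscle score (mean log2 CPM of 10 genes) in 24 nodose libraries. Right, slope of each member on the score with its standard error, in order of slope and coloured by complex, with open circles for the 8 members that did not pass; Cox6a2 is highest at 1.12 and Cox8a lies below 0 at -0.14.

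Across the 24 nodose libraries the member median correlated with the muscle score at Pearson's r = 0.93 and with the ribosomal protein median at r = 0.36, given as a description, since the values share libraries, depth and scaling. Control ZT4 replicate 1 was the lowest library for 38 of 78 members and Control ZT16 replicate 3 for 30, and both had the lowest muscle scores, 9.32 and 8.36. Control ZT10 replicate 1 was the highest for 49 members and had the highest score, 12.4. These libraries were also the shallowest where low, with 1813994 and 2889210 counts. Without the 2 libraries of lowest score, the number of members that passed went from 70 to 66 and the median slope from 0.44 to 0.62. Of all genes 19.5% passed with all libraries, and the share without these 2 is not given. The member median correlated at r = 0.34 with the adipocyte score and at r = 0.40 with the summed brown adipocyte markers on a log2 scale. With an adipocyte and a brown adipocyte score as further covariates, added after the data were seen, 70 members still passed, beside 2488 of all genes. The median slope was then 0.43, with Cox6a2 at 1.10, Cox7a1 at 0.88 and Cox8b at 0.76.

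HepDKO ZT22 replicate 3 departed from that pattern. It was the highest nodose library for 24 members, but its complexes were uneven, with a median log2 deviation of 0.71 for complex I, 0.72 for complex III, 0.51 for the ATP synthase and 0.36 for complex IV. Ndufa2, an accessory subunit of complex I, read 190 CPM there against 26.5 to 70.8 CPM in the other 23 libraries, and Atp5e 397 against 42.2 to 180 CPM. In the opposite direction, Ndufa4 read 45.9 CPM, where only Control ZT4 replicate 1 was lower at 43.2 CPM, and Cox7b read 64.6 CPM, where only the same library was lower at 43.7 CPM. Genes with more than 8000 bases of exon lay 0.17 below their mean in this library, and its part in the results was tested only by leaving it out.

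Hepatic deletion left no member past the threshold in the nodose ganglion. By the quasi-likelihood test of edgeR, Benjamini-Hochberg adjusted, 0 of 78 members passed for HepDKO minus Control over the 4 time points (0% of all genes passed), and 2 had an unadjusted p under 0.05 (3.34% of all genes). DESeq2 and limma voom also called none. In simulated nodose counts a genotype change of 0.5 log2 passed in 53.7% of changed genes over all times and in 1.49% at ZT4. Differences of this size could therefore have been missed. The median difference was 0.20, with 73 of 78 above 0 (53.3% of all genes). It did not hold its direction by time: the median was 0.44 for ZT4 and 0.54 for ZT16, with -0.34 for ZT10 and 0.19 for ZT22, and 0 of 78 members were above 0 at all 4 times, against 4.57% of all genes.

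The muscle score also differed between the groups, and whether it caused these medians was not tested. The mean muscle score of Control and HepDKO libraries was 10.7 and 11.4 at ZT4, 12.0 and 11.5 at ZT10, 10.2 and 11.3 at ZT16 and 11.0 and 11.4 at ZT22, so the sign of the score difference was that of the member median at each time. With the score as a covariate the medians became 0.21, -0.12, 0.10 and 0.01, and 0.05 over all times, with 0 of 78 members past the threshold in any of them (0% of all genes). Single libraries moved the medians as well. Without Control ZT4 replicate 1 the ZT4 median was 0.15, and without Control ZT4 replicate 3 it was 0.74. At ZT10 it was -0.15 without Control replicate 1 and -0.54 without Control replicate 3, and at ZT16 it was 0.35 without Control replicate 3. At ZT22 it was -0.05 without HepDKO replicate 3 and 0.43 without Control replicate 3, and without HepDKO ZT22 replicate 3 the median over all times was 0.13. An unadjusted p under 0.05 was found at ZT4 in 3 members (2.36% of all genes), at ZT10 in 1 (2.04%), at ZT16 in 10 (4.94%) and at ZT22 in 4 (5.25%), and 0 passed after adjustment at any of them (0% of all genes each).

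Cox6a1 had the lowest p over all times, with a difference of -0.27 ± 0.079 (unadjusted p = 0.00274, adjusted p = 1.00 by the edgeR test). Its Control libraries read 57.9, 69.8 and 67.9 CPM at ZT4, 67.7, 51.8 and 69.6 at ZT10, 57.9, 51.4 and 72.8 at ZT16 and 53.2, 58.1 and 42.3 at ZT22. Its HepDKO libraries read 52.4, 45.0 and 49.0, then 57.6, 47.8 and 47.9, then 51.7, 42.7 and 62.6, then 46.6, 47.0 and 46.2 CPM. The groups did not overlap at ZT4 and overlapped at the other 3 times. At ZT4 all HepDKO libraries lay above Control in 3 of 78 members and below in 2, against 4.03% and 4.1% of all genes. With the muscle score as a covariate its difference was -0.23 ± 0.077 (unadjusted p = 0.00674), nearly as large.

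Cox6b2 led the single-time comparisons at ZT16, where Control libraries read 3.39, 3.25 and 3.52 CPM and HepDKO libraries 1.2, 1.39 and 1.84 CPM without overlap. Of 78 members 1 was so separated downward at ZT16 and 4 upward, against 8.18% and 7.4% of all genes. At ZT4 the groups did not overlap either, but in the opposite order, with 1.47, 1.01 and 0.625 CPM in Control and 2.01, 2.42 and 2.10 CPM in HepDKO. The log2 differences were -1.17 ± 0.44 at ZT16 and 1.17 ± 0.54 at ZT4 (unadjusted p = 0.014 and 0.0423, adjusted p = 0.844 and 1.00 by the edgeR test). The gene is one of the least abundant members. Ndufa2 at ZT22 had a difference of 1.06 ± 0.42 that came to -0.028 without HepDKO ZT22 replicate 3.

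In the arcuate nucleus the members lay slightly higher in HepDKO libraries as a group, without any single gene passing. Over the 4 time points 0 of 76 members passed the quasi-likelihood test of edgeR, Benjamini-Hochberg adjusted over 16102 genes (0% of all genes), while 34 had an unadjusted p under 0.05, all of them higher, against 8.61% of all genes (4.97% higher and 3.64% lower). The median difference was 0.08 for the members and -0.00 for all genes, and 67 of 76 members lay above 0, against 47.8% of all genes. At all 4 time points 30 of 76 members were above 0, against 9.55% of all genes. By complex, 15 of 34 members of complex I, 3 of 8 of complex III, 7 of 17 of complex IV and 9 of 17 of the ATP synthase had an unadjusted p under 0.05.

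Ribosomal protein genes, which are also short and abundant, had the same median, and none passed after adjustment. Of 70 cytosolic ribosomal protein genes 33 had an unadjusted p under 0.05, all higher, with a median of 0.08. Across the 24 arcuate libraries the member median correlated with the ribosomal protein median at Pearson's r = 0.93, and at 0.89 without HepDKO ZT4 replicate 3. With the median of genes under 1200 bases of exon, some of them members, it correlated at r = 0.92. These are given as a description, so the shift was not particular to the members. The counts were 3 of 37 for proteasome subunits, 4 of 36 for assembly factors, 1 of 4 for complex II, and 1 of 11, lower, for regulators of biogenesis.

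Atp5k, the e subunit of the ATP synthase membrane stalk, had the lowest p of the members. At ZT4 its Control libraries read 39.6, 39.0 and 42.9 CPM and its HepDKO libraries 48.7, 57.3 and 61.9 CPM. At ZT10 they read 47.7, 45.6 and 44.6 against 56.5, 46.3 and 49.2 CPM, at ZT16 43.1, 40.4 and 42.3 against 50.9, 49.1 and 45.1 CPM, and at ZT22 38.6, 42.0 and 35.3 against 37.0, 42.8 and 44.6 CPM. HepDKO libraries were all higher at ZT4 and ZT16 and overlapped with Control at ZT10 and ZT22. The difference over all times was 0.23 ± 0.045 (adjusted p = 0.0796 by the edgeR test). Chosen after their values were seen, Ndufa13 and Ndufa1, accessory subunits of complex I, and Atp5md, a small subunit of the ATP synthase, each lay 0.22 higher with the same adjusted p of 0.0796.

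The number that passed depended on method and library. DESeq2 called 4 members among 23 of all genes, and limma voom with sample weights called 2 among 5, Atp5k and Ndufa13 (adjusted p 0.0341 and 0.0273). Leaving out 1 library gave 3 members among 7 of all genes without HepDKO ZT4 replicate 1, 2 among 6 without Control ZT22 replicate 2, and 1 among 2 without HepDKO ZT4 replicate 3, namely Ndufa13 at 0.18 ± 0.033 (adjusted p = 0.0452). Without HepDKO ZT4 replicate 3 the difference of Atp5k was 0.21 ± 0.042 (adjusted p = 0.0695, both by the edgeR test), 30 members had an unadjusted p under 0.05 against 7.82% of all genes, and the median fell from 0.08 to 0.05.

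The group difference was widest at ZT4 and rested there in large part on 1 library. At ZT4 46 of 76 members had an unadjusted p under 0.05, all higher, against 11.9% of all genes (6.28% higher and 5.65% lower), and 0 passed after adjustment (0% of all genes). DESeq2 called 2 members among 5 of all genes and limma voom none. The median was 0.20 and 74 of 76 members lay above 0. In 38 of 76 members all 3 HepDKO libraries were above all 3 Control libraries, which held for 6.76% of all genes, and in 0 members was the order reversed, against 6.09% of all genes.

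At ZT4 Ndufa1 read 32.1, 30.0 and 33.2 CPM in Control and 40.9, 37.4 and 50.1 CPM in HepDKO libraries. Atp5md read 56.4, 54.3 and 53.2 against 63.3, 72.0 and 83.6 CPM, and Ndufa13 76.2, 73.6 and 77.6 against 86.4, 86.0 and 116 CPM. Ndufa6, an accessory subunit of complex I, read 65.4, 60.3 and 65.5 against 73.7, 77.5 and 92.0 CPM. In these 4 genes, chosen after their values were seen, no HepDKO library overlapped with Control and replicate 3 was the highest. The largest ZT4 difference of any member was that of Cox6a2, at 0.63 (unadjusted p = 0.0305), a gene at 1.29 to 4.86 CPM in the arcuate nucleus. Atp5k had the lowest p, at 0.47 ± 0.089 (adjusted p = 0.255 by the edgeR test), followed by Ndufa1 at 0.43 ± 0.090, Atp5md at 0.42 ± 0.091 and Ndufa6 at 0.35 ± 0.079.

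HepDKO ZT4 replicate 3 was the highest of the 24 arcuate libraries for 67 of 76 members, and the highest of the 6 at ZT4 for 69. Its median member lay 0.37 above the arcuate mean, with complex I at 0.35, complex III at 0.40, complex IV at 0.40 and the ATP synthase at 0.34, while the other 23 libraries lay between -0.12 and 0.15. Other gene groups moved in it too. Cytosolic ribosomal protein genes lay 0.33 and proteasome subunits 0.19 higher, genes with under 1200 bases of exon 0.33 higher and genes with over 8000 bases 0.22 below their mean, a deviation of -0.22. The summed astrocyte markers were 724 CPM there against 967 to 1198 CPM elsewhere, the oligodendrocyte markers 1253 CPM against 508 to 1147, and the arcuate neuron markers 369 CPM against 230 to 349. The part of these in the result was not tested beyond leaving the library out.

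Without that library 21 members had an unadjusted p under 0.05 at ZT4, all higher, against 4.79% of all genes, and the median fell from 0.20 to 0.09, with 67 of 76 still above 0. The ribosomal protein genes went from 43 of 70 to 12 of 70. Atp5k kept a difference of 0.39 ± 0.088 with an adjusted p of 0.6, and Ndufa1 one of 0.30 ± 0.083, Atp5md 0.31 ± 0.085, Ndufa6 0.25 ± 0.072 and Ndufa13 0.19 ± 0.072 (the edgeR test).

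**Figure D4:**
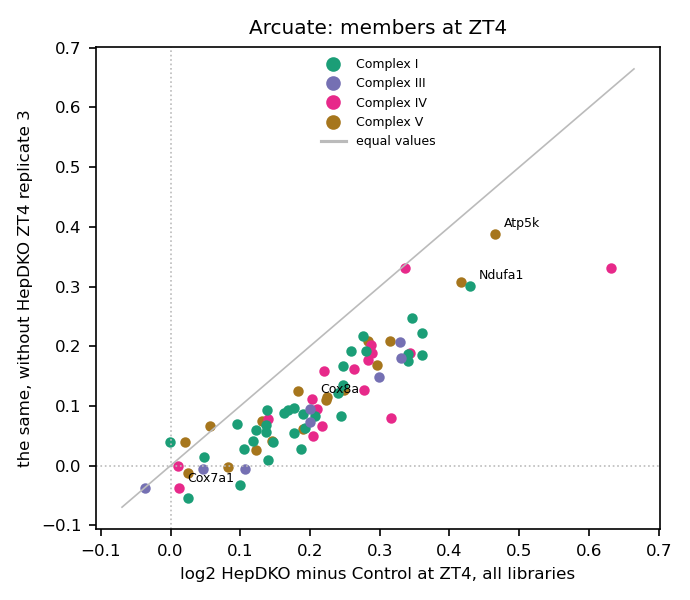
HepDKO minus Control difference at ZT4 (log2) of each of the 76 arcuate members, 1 point per member coloured by complex, with all libraries (horizontal) against the same without HepDKO ZT4 replicate 3 (vertical), and a line of equal values. Most points lie below the line: the median is 0.20 with the library and 0.09 without it, and Atp5k is at 0.47 and 0.39.

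At the later times the differences were small. The median was 0.06 at ZT10, with 61 of 76 members above 0 (50.2% of all genes) and 6 at an unadjusted p under 0.05, all higher (2.34% of all genes, 1.24% higher and 1.1% lower). It was 0.06 at ZT16, with 62 above 0 (50.2% of all genes) and 4 at an unadjusted p under 0.05, all higher (2.73%, 1.4% higher and 1.34% lower). It was 0.00 at ZT22, with 2 at an unadjusted p under 0.05, both lower (3.72%, 1.51% higher and 2.21% lower). Without HepDKO ZT4 replicate 3 these counts became 14 at ZT10 (3.64% of all genes), 11 at ZT16 (3.9%) and 1 at ZT22 (5.33%). None passed after adjustment (0% of all genes at each time). HepDKO libraries were all above Control in 14 members at ZT10 (5.71% of all genes), 8 at ZT16 (4.72%) and 4 at ZT22 (4.15%), and all below in 8 at ZT22 (4.37%). The lowest p values at those times belonged to Atp5md at ZT10 (0.26 ± 0.091), Ndufb2 at ZT16 (0.21 ± 0.084) and Ndufs1, the largest subunit of complex I, at ZT22 (-0.18 ± 0.066). Leaving out 1 library at a time, the difference of Ndufs1 ran from -0.24 without Control ZT22 replicate 3 to -0.11 without Control ZT22 replicate 1, that of Atp5md from 0.17 to 0.31 and that of Ndufb2 from 0.14 to 0.30.

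A daily rhythm passed for a few members in the arcuate nucleus. A 24-h cosine was tested on the 4 time points, averaged over genotypes, with the amplitude given in log2 units and the peak in ZT. By the quasi-likelihood test of edgeR, Benjamini-Hochberg adjusted 5 of 76 members passed, where 3.86% of all genes did. They were Atp5k (amplitude 0.14 ± 0.032, peak ZT 8.9, adjusted p = 0.0299), Atp5g1 (0.10, ZT 9.3, 0.0334), Atp5e (0.12, ZT 7.7, 0.0402), Cox8a (0.11, ZT 6.0, 0.0433) and Ndufv3, an accessory subunit of the NADH-binding part of complex I (0.11, ZT 6.8, 0.0467). A further 25 members brought those with an unadjusted p under 0.05 to 30, against 21.6% of all genes. The median amplitude was 0.07 for the members and 0.07 for all genes.

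The fitted peaks, most of them of members that did not pass, are given as a description. Averaged over genotypes all 76 lay between ZT0 and ZT12, against 8370 of all 16102 genes, and so did those of all 70 ribosomal protein genes, of which 8 passed. In Control alone 59 of 76 peaks lay there (8208 of all genes) and in HepDKO alone 76 of 76 (8352 of all genes). Atp5g1 read 82.6, 79.0 and 82.1 CPM at ZT4, 87.1, 89.8 and 88.1 at ZT10, 88.0, 84.4 and 77.7 at ZT16 and 73.2, 81.4 and 78.3 at ZT22 in Control, and 91.1, 86.0 and 99.5, then 93.7, 85.0 and 86.4, then 87.8, 85.4 and 83.7, then 73.3, 77.6 and 79.9 CPM in HepDKO libraries. In both genotypes all 3 libraries at ZT10 were above all 3 at ZT22. This describes a gene chosen by its call in these same values, without the share of all genes in that order, and is no further support.

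These calls were not stable to the libraries used. No member passed without any one of Control ZT10 replicate 1, Control ZT10 replicate 2, Control ZT16 replicate 2, Control ZT22 replicate 3, HepDKO ZT10 replicate 1 or HepDKO ZT16 replicate 2. Between 1 and 3 passed without any one of Control ZT4 replicates 1, 2 and 3, Control ZT10 replicate 3, Control ZT16 replicate 3, Control ZT22 replicate 1, HepDKO ZT16 replicates 1 and 3 and HepDKO ZT22 replicates 1, 2 and 3. There were 9 without Control ZT16 replicate 1, without HepDKO ZT4 replicate 1 and without HepDKO ZT4 replicate 3. The genes that passed over the whole table changed too, from 622 with all libraries to between 287 without HepDKO ZT16 replicate 2 and 1031 without HepDKO ZT4 replicate 2, and were 971 without HepDKO ZT4 replicate 3. Atp5k passed in 17 of the 24 fits that left out a library, Atp5g1 in 11, Cox8a in 10, and Atp5e and Ndufv3 in 7 each. Scaling by library totals alone left 1 member among 510 of all genes, and limma voom called 15 among 1586. Without HepDKO ZT4 replicate 3, 75 of 76 members still peaked between ZT0 and ZT12.

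Taken by genotype, no member passed in either. In Control 2 of 76 had an unadjusted p under 0.05 (7.73% of all genes) and the median amplitude was 0.05. In HepDKO 38 of 76 did (17.4% of all genes) and the median amplitude was 0.11. After adjustment 0 passed in Control (0.261% of all genes) and 0 in HepDKO (0.379% of all genes) by the edgeR test, whereas in HepDKO DESeq2 called 2 among 320 of all genes and limma voom 3 among 448, and neither called a member in Control. The difference of the rhythm between genotypes passed for 0 of 76 (0% of all genes), with 6 at an unadjusted p under 0.05 (2.37%). Without HepDKO ZT4 replicate 3 those 6 became 0 (2.59% of all genes), the 38 in HepDKO became 28 (14.6%) and the 2 in Control became 5 (11.2%).

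**Figure D5:**
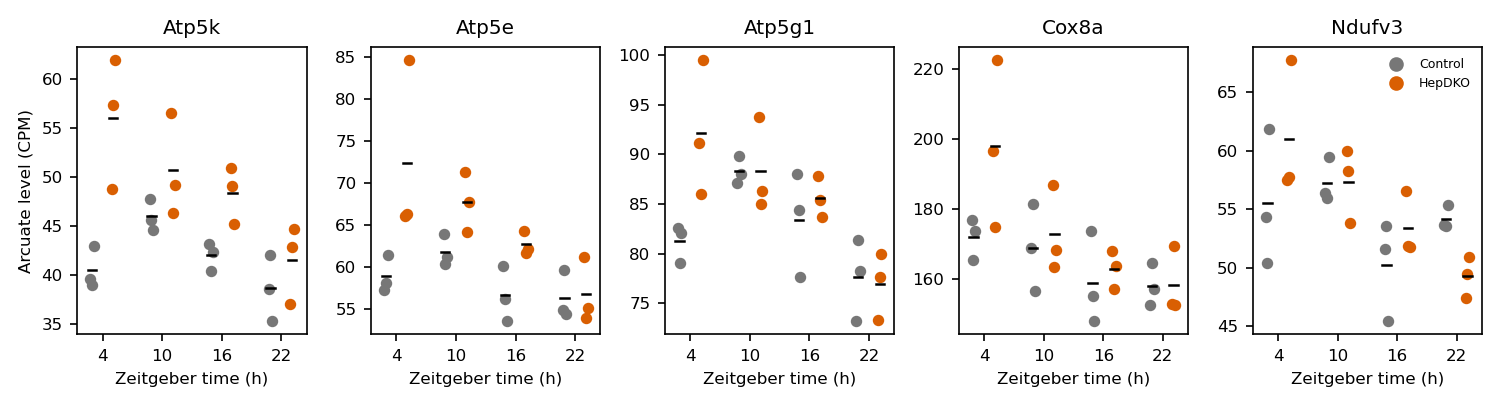
Arcuate level (CPM, axes not starting at 0) by zeitgeber time (h) of the 5 members whose rhythm over genotypes passed, 1 point per library, grey for Control and orange for HepDKO, with short bars at the mean of 3 libraries. HepDKO libraries spread widest at ZT4, where replicate 3 is the highest point in all 5 genes. Atp5g1, chosen by its call in these values, lies higher at ZT10 than at ZT22 in both genotypes.

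In the nodose ganglion no member had a rhythm that passed. Averaged over genotypes 0 of 78 passed (1.33% of all genes) with 2 at an unadjusted p under 0.05 (12.8%), in Control 0 passed (0.242%) with 1 unadjusted (8.88%), in HepDKO 0 passed (0.121%) with 0 unadjusted (7.28%), and the difference between genotypes passed for 0 (0%) with 2 unadjusted (2.83%), all by the edgeR test, and DESeq2 and limma voom called none. Cox6b2 had the lowest p, with an amplitude of 0.53 ± 0.17 averaged over genotypes (adjusted p = 0.242) and of 1.00 ± 0.26 in Control (adjusted p = 0.221). The median amplitude of the members was 0.32 in Control and 0.12 in HepDKO. The Control means of the muscle score ran from 10.2 at ZT16 to 12.0 at ZT10. With the score as a covariate the median amplitudes were 0.12 and 0.11, and its part as a cause was not tested.

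Neither the genotype effect nor the rhythm of any member differed between the tissues past the threshold. In the fit of all 48 libraries 0 of 78 members passed for the difference of the overall HepDKO effect (0% of all genes) by the quasi-likelihood test of edgeR, Benjamini-Hochberg adjusted, and 2 had an unadjusted p under 0.05, both lower (4.73% of all genes). They were Cox6a1 (-0.37 ± 0.087, adjusted p = 0.254) and Cox8a (-0.18 ± 0.082, adjusted p = 1). DESeq2 called Cox6a1 (-0.39, adjusted p = 0.0223) among 10 of all genes. For the rhythm 0 of 78 passed (0.967% of all genes) with 1 at an unadjusted p under 0.05 (12% of all genes), Cox6b2 (amplitude of the difference 0.68 ± 0.18, adjusted p = 0.118), which DESeq2 called (adjusted p = 0.0304) among 419 of all genes.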

How the data were processed

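RNA sequencing of pooled tissue was read as raw counts per gene symbol. The authors deposited whole-number counts for 48 libraries, and per the submitters' processing notes used FastQC 0.11.7, Trim Galore 0.6.10 and STAR 2.7.10b on mm10. The counting tool, its annotation and its use of strand are not given in the sources used here, so reads of overlapping or near-identical genes may have been split. The table read here held no genes of mitochondrial DNA among its symbols. The members and all gene lists were chosen with earlier results of these data known.

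Each tissue was fitted alone in R 4.3.3 with edgeR 4.0.16 (quasi-likelihood, robust, filterByExpr, TMM scaling, 1 mean for each of 8 groups), with Benjamini-Hochberg adjustment over all genes tested (16102 arcuate, 14867 nodose) and a threshold of 0.05. A fit of all 48 libraries (17478 genes) gave the tissue contrasts. The rhythm was a test of ZT4 minus ZT16 and ZT10 minus ZT22 together. CPM values were TMM-scaled within tissue, and log2 CPM used a prior count of 2. Lengths were those of the shortest principal transcript, found for 75 members. Per-member errors are standard errors of the fit. Libraries held 15483922 to 20399718 counts (arcuate) and 1813994 to 10422914 (nodose), and replicates differed by more than counting error, with a chi-square of at least 2.89 (arcuate) and 8.12 (nodose) per degree of freedom. The scripts were tested on simulated data.

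The rule for named members took the alternative forms of complex IV and of the ATP synthase c subunit, for each test up to 5 members past the threshold in each direction by lowest p or else the one with the lowest p, the 3 with the highest and lowest mean CPM per tissue and those near 1 CPM, and Atp5k. Others, among them the order per length, Ndufa13, Ndufa1, Atp5md and Ndufa6 outside their lowest p, Ndufa8, Uqcrfs1, Uqcrb, Ndufb4 and values in single libraries, were named after their values were seen. Alternatives were RLE scaling, library totals alone, no filter, leaving out Rn45s, Lars2 and Mir6236, DESeq2 1.42.0, limma 3.58.1 (voom), a replicate block, muscle and adipocyte scores as covariates, and each library left out in turn.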

Additional observations from a re-analysis of the deposited data

How the results depend on the processing

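The SD of the member median within a group of 3 was 0.17 to 0.65 in the nodose ganglion, whose libraries are shallower and vary in muscle content, against 0.04 to 0.18 in the arcuate nucleus. Of the counts of members past the threshold, those for nodose genotype and rhythm were 0 under every alternative run.

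By DESeq2 the counts became 4 for the arcuate genotype effect over all times and 2 at ZT4 (both 0 in edgeR), 2 for the HepDKO arcuate rhythm (from 0), and 1 each for the tissue difference of the genotype effect and of the rhythm (from 0). By limma voom they became 2 for the arcuate genotype effect, 15 for the arcuate rhythm over genotypes (from 5) and 3 for the HepDKO rhythm. Library totals alone left 1 for the arcuate rhythm over genotypes. The cause of these changes was not tested.

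Leaving out each library in turn gave 0 to 3 members for the arcuate genotype effect, 0 to 2 at ZT4, 0 to 9 for the rhythm over genotypes, 0 to 3 for the HepDKO rhythm, 60 to 62 for the tissue level (all 78 members, Cox8b and Ndufs5-ps included) and 68 to 72 for the muscle slope. With all libraries 0% of all genes passed for the arcuate genotype effect and at ZT4, 3.86% for the rhythm over genotypes and 0.379% for the HepDKO rhythm. The shares were 92.1% for the tissue level and 19.5% for the muscle slope. Calls over all genes moved between the arcuate fits too, so these ranges describe stability alone. The nodose ZT22 difference of Ndufa2 ran from -0.028 without HepDKO ZT22 replicate 3 to 1.43 without HepDKO ZT22 replicate 1, from 1.06 with all. The muscle slope of Cox6b2, 0.01, ran from -0.094 without Control ZT22 replicate 3 to 0.061 without Control ZT16 replicate 3, and was also below 0 without Control ZT22 replicate 2 (-0.05), HepDKO ZT10 replicate 1 or HepDKO ZT16 replicate 1, and -0.0012 with the adipocyte and brown adipocyte scores as covariates. That alternative and leaving out the 2 nodose libraries of lowest muscle score were chosen after seeing the data. In the latter Cox8a, Cox7b (slope 0.45) and Ndufa4 (0.48) missed the threshold.

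Replicate numbers are shared between groups but did not pair the libraries: deviations of same-numbered libraries correlated from -0.13 to 0.16 in the arcuate nucleus and from -0.43 to 0.36 in the nodose ganglion, with medians of 0.02 and 0.00. With a replicate block 4 members passed for the arcuate rhythm over genotypes, 70 for the muscle slope, 61 for the tissue level and 0 in the other comparisons.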
